A study of Mus musculus with 60 samples.

Results

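The immunoglobulin variable (V) segments are the germline genes that encode the antigen-binding part of antibody chains, and 123 of them were measured in the kidneys of 60 mice. They were taken as every gene with a GENCODE symbol beginning with Ighv (heavy chain), Igkv (kappa light chain) or Iglv (lambda light chain) that reached at least 1 CPM (counts per 1000000 gene counts of a sample) in at least 1 mouse. They made up 123 of the 15546 genes that met this minimum, and comprised 57 Ighv, 64 Igkv and 2 Iglv segments. All mice were males on the C57BL/6J background that carried Bmal1 lox/lox alleles, were 8 weeks old at the start of treatment, and drank doxycycline (2 mg/ml, with 20 mg/ml sucrose) for 2 weeks. The cKOt mice also carried Pax8-rtTA and LC-1, so that doxycycline induced Cre recombinase in cells that use the Pax8 promoter, which in the kidney is active in the tubular epithelium. The control mice were littermates without these transgenes. Mice were kept under 12 h of light and 12 h of dark, and kidneys were taken about a month later every 4 h from ZT0 to ZT20, with 5 mice in each of the 12 groups (ZT0 is lights on and ZT12 lights off). The labels call the tissue renal tubule, whereas the study's methods describe frozen pieces of whole kidney from perfused mice. The study addressed how the kidney's own clock bears on its metabolism.

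A B cell assembles a heavy chain gene by joining 1 V segment to a D and a J segment, and a light chain gene by joining 1 kappa or lambda V segment to a J segment. Each B cell and its descendants thus transcribe 1 productive heavy and usually 1 light V segment, spliced to a constant region that sets the antibody class (Ighm for IgM, Ighg genes for IgG, Igha for IgA, Igkc for kappa). Plasma cells, the antibody-secreting end stage of the lineage, hold far more immunoglobulin RNA than resting B cells, and the J chain (Jchain) links IgA or IgM units into polymers. In bulk tissue, fewer B lineage cells and less immunoglobulin RNA per cell cannot be told apart.

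The germline sequences of the segments with the highest levels are shown first, because they also show how far a read can tell one segment from another. Igkv1-110 (ENSMUSG00000093861, chr6:68270485-68271267, plus strand, GRCm38) and Igkv1-117 (chr6:68121046-68121827, plus strand) had the highest mean levels of all members. The last 300 bases of their coding sequences, read 5′ to 3′ from the GENCODE transcripts, differ at 10 positions, which are in capitals, and their whole coding sequences are 97.2% identical.
Igkv1-110: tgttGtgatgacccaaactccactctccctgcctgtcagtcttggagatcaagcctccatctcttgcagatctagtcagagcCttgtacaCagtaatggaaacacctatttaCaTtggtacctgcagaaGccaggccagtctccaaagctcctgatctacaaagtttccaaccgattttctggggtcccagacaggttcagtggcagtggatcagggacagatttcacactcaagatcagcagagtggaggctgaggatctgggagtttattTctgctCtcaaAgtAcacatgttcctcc
Igkv1-117: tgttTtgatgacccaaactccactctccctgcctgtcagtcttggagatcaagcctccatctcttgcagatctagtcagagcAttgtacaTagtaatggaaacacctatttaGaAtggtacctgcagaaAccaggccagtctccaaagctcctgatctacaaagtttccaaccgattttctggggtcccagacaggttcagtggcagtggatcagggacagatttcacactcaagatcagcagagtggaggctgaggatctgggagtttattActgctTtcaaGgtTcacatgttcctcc
The lambda segments Iglv1 (chr16:19085017-19085500, minus strand) and Iglv2 (chr16:19260401-19260859, minus strand) are 96.9% identical over the coding sequence, and the 8 positions that differ in their last 300 bases are in capitals.
Iglv1: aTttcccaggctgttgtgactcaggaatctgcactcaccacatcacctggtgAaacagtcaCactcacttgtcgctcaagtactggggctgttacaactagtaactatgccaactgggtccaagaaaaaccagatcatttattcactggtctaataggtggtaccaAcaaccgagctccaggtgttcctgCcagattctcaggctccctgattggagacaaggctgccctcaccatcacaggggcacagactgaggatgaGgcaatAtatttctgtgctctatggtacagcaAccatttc
Iglv2: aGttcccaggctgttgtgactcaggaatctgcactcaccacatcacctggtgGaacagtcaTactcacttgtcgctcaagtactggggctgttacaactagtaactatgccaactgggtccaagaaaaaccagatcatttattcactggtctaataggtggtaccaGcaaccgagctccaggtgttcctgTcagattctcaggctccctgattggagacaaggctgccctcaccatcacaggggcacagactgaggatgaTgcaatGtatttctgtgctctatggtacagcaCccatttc
The heavy segment with the highest level, Ighv1-81 (chr12:115920279-115920712, minus strand), is nearest to Ighv1-85 (chr12:116000028-116000461, minus strand), at 92.9% identity with 22 differing positions in capitals.
Ighv1-81: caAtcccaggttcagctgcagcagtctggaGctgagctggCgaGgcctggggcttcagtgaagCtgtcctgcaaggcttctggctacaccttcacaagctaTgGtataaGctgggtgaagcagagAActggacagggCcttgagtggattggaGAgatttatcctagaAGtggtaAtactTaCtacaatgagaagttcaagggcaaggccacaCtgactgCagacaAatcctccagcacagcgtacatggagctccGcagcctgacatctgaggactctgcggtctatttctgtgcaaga
Ighv1-85: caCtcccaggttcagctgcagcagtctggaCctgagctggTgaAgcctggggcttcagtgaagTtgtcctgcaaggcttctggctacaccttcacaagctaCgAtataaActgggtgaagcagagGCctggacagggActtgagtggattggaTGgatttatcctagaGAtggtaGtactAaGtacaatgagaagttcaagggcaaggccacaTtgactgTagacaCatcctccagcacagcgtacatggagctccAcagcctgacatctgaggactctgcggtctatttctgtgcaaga
Over all members, the most similar other V segment was 95.5% identical in the median, 22 of the 123 had one at 97% or more, and none was identical to another. In 74 members every stretch of 100 bases was found in no other annotated V transcript, and 1 member, Igkv6-20, had fewer than 50% of such stretches to itself (44.2%), so its counts are uncertain. For Igkv1-110 and Igkv1-117 the shares were 83.8% and 83.9%, and for Ighv1-81 the share was 100%. The study's reads were longer than 100 bases before trimming, so these shares do not apply directly to the reads.

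The annotation lists 113 Ighv, 100 Igkv and 3 Iglv genes of the V type, of which 57, 64 and 2 were members, and 130 V pseudogenes, none of which was a member. Counts were detected for 205 of the 216 V genes, against 26 of the 130 pseudogenes, which held 86 of the 95449 V counts in all. Just inside the minimum were Ighv1-12 at 1.00 CPM and Ighv1-84 and Igkv14-126 at 1.01 CPM in their highest mouse, and just outside were Ighv1-59 at 0.999, Ighv5-16 at 0.985 and Igkv13-85 at 0.976 CPM. These are CPM of total gene counts, whereas the levels given from here on are CPM after scaling by the trimmed mean of M values (TMM). Most members were sparse: the mean level over 60 mice had a median of 0.428 CPM and was at least 1 CPM for 15 members, 27 members reached 1 CPM in 1 mouse alone, and 19 had counts in every mouse. The total gene count per mouse was 17791420 to 20906706, and 3 counts, the upper limit that a count of 0 allows for counting error, correspond to 0.143 to 0.169 CPM. The targeted gene Arntl (Bmal1) ranged from 1.93 CPM at ZT12 to 57.1 CPM at ZT0 in control mice, and from 14.6 to 26.8 CPM over all times in cKOt mice. Its counts cover the whole gene, not the deleted part alone, and at each time point the ranges of the genotypes did not overlap except at ZT16.

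The levels were concentrated in few segments. Per kilobase of exon, the mean level was highest for Igkv1-110 (19.1 CPM per kb), followed by Igkv1-117 (16.4), Ighv1-81 (9.91), Igkv10-96 (8.76), Iglv1 (6.43), Igkv1-135 (5.36), Igkv14-111 (5.00), Ighv9-3 (4.71), Ighv1-26 (4.27) and Igkv6-15 (3.97). Neighbours in this order had overlapping ranges over the mice. These 10 members held 39.0% of the summed member level. By family, the 33 Ighv1 members, a family also known as J558, held 63.9% of the heavy chain level, and the 5 Igkv1 members held 32.8% of the kappa level, followed by the 14 Igkv4 members at 13.1% and the 8 Igkv6 members at 10.1%. Iglv1 held 85.9% of the lambda level.

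**Figure D1:**
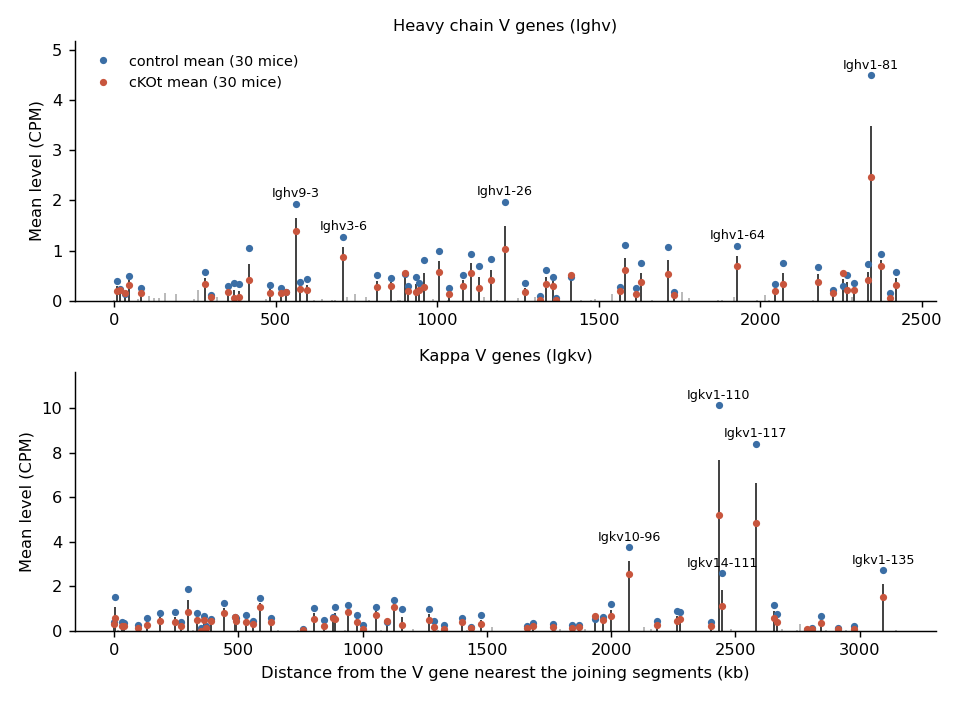
Mean level (CPM) of each annotated heavy chain (upper) and kappa (lower) V gene against its distance in kb from the V gene nearest the joining segments. Dark lines are the mean of 60 mice for members and grey lines for V genes that were not members, blue and red points are the means of 30 control and 30 cKOt mice, and the highest lines are those of Ighv1-81, Igkv1-110 and Igkv1-117, far from the joining segments.

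Members came from the whole length of both large loci. When the V genes of each locus were divided by position into 3 parts, 17 of the 38 heavy chain V genes nearest the joining segments were members, against 21 of 38 in the middle and 19 of 37 in the part farthest away. The farthest part held 41.8% of the heavy chain level and the nearest 21.7%. In the kappa locus, members numbered 24 of 34 in the nearest part, 21 of 33 in the middle and 19 of 33 in the farthest, and the farthest part, which holds Igkv1-110, Igkv1-117 and Igkv10-96, had 54.5% of the kappa level. The plot of levels along the loci shows the same segments at the top in both genotypes.

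Every kidney held V segment counts, from 401 to 4511 per mouse over the 123 members. The summed level, given as a description with no test, was 35.4 CPM in the lowest, 88.4 CPM in the median and 254.7 CPM in the highest of the 30 control mice. In the 30 cKOt mice it was 20.8 CPM in the lowest, 58.1 CPM in the median and 138.2 CPM in the highest. The ranges overlapped widely, and 5 control mice stood above the highest cKOt mouse. Of the 123 members, a median of 110 had counts in a control mouse (87 to 121) and 102 in a cKOt mouse (74 to 113).

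At ZT0 the control mice had summed levels of 41.9, 69.4, 73.4, 82.7 and 109.8 CPM, and the cKOt mice 42.0, 64.2, 66.3, 105.9 and 138.2 CPM. The groups overlapped fully at that time. At ZT16 the control mice had 37.0, 86.4, 121.0, 139.1 and 184.7 CPM, and the cKOt mice 20.8, 40.1, 51.9, 52.3 and 66.2 CPM. At ZT20 the values were 74.8, 126.1, 133.6, 162.5 and 254.7 CPM in control mice and 21.4, 47.9, 53.5, 59.6 and 65.0 CPM in cKOt mice. ZT20 was the time point at which the groups did not overlap, and at ZT16 1 control mouse lay among the cKOt mice. The group medians of control against cKOt mice were 97.3 and 68.8 CPM at ZT4, 90.2 and 58.0 at ZT8, and 82.8 and 54.1 at ZT12. Within the 6 batches recorded by the study, the cKOt median was the lower in 5, and in the first batch it was 54.9 CPM (n = 6) against 53.2 CPM (n = 4) in control mice.

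**Figure D2:**
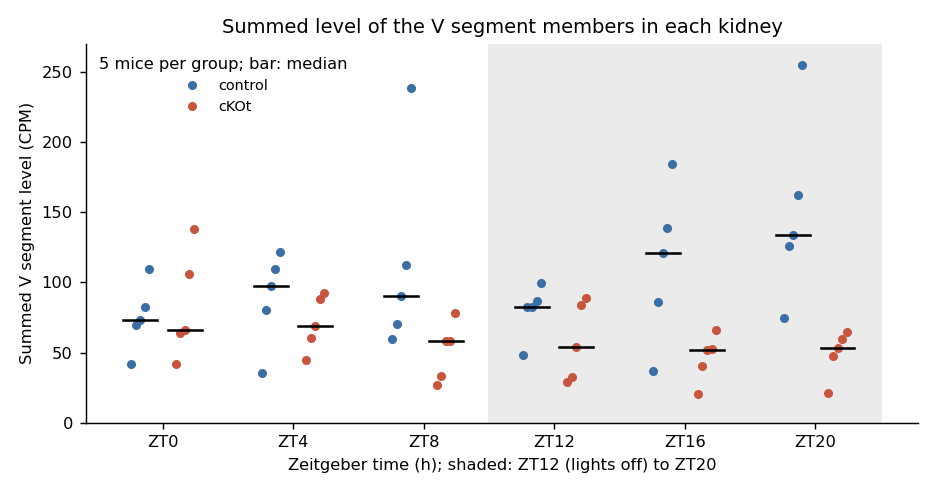
Summed level of the 123 V segments (CPM, TMM scaled) in each kidney by zeitgeber time, with control mice in blue, cKOt mice in red, 5 mice per group and a bar at the group median. At ZT20 all 5 control mice (74.8 to 254.7 CPM) sit above all 5 cKOt mice (21.4 to 65.0 CPM), and at ZT0 the groups overlap.

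The genotype comparison asked whether single segments differed between cKOt and control mice, averaged over the 6 time points, in the quasi-likelihood test of edgeR, with p-values adjusted by Benjamini-Hochberg over all 15546 genes. Of the 123 members, 64 were lower in cKOt mice at an adjusted p below 0.05 (52.0%), and none was higher. Among all genes tested, 23.2% were called lower and 26.8% higher. At an unadjusted p below 0.05, 70 members were lower and 0 higher. The fitted difference was negative in 119 members, with a median of -0.83 on the log2 scale, against a median of 0.01 for all genes. The calls came from each locus, with 31 of 57 Ighv, 32 of 64 Igkv and 1 of 2 Iglv segments. Members and loci were measured in the same mice and are not independent, so these counts are not separate results. The kappa V level divided by the heavy V level was 1.27 to 2.48 in control and 1.48 to 2.45 in cKOt mice. The summed heavy V level itself ranged from 7.31 to 83.6 CPM. A segment could become a member through control mice alone, since 29 members reached 1 CPM in control mice and not in cKOt mice, against 12 the other way round. Among the 82 members that reached 1 CPM in a mouse of each genotype, 46 were called lower and the median was -0.80. In 9 members at least 1 group of 5 mice had no count, which makes their fitted values unstable, and over the other 114 the median was -0.81 with 60 called lower. Without the 12 mice numbered replicate 1, 39 of the 115 members tested were called lower and 0 higher. In that fit 3139 of all 15451 genes were lower.

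Igkv1-110 ranged from 1.76 CPM over a median of 8.47 to 41.2 CPM in control mice, and from 0.741 CPM over 3.45 to 20.3 CPM in cKOt mice. It was lower in cKOt mice by a log2 difference of -1.15 ± 0.21 (SE, n = 30 and 30, edgeR adjusted p = 5.2e-06). The sequence neighbour Igkv1-117 had a median of 7.64 CPM in control mice (0.725 to 24.5) and 3.85 CPM in cKOt mice (0.741 to 20.9), and its log2 difference was -0.81. Both segments thus had wide, overlapping ranges with a lower middle in cKOt mice.

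Ighv1-81, the leading heavy segment, had a median of 3.81 CPM in control mice (0.207 to 14.0) and 1.99 CPM in cKOt mice (0.106 to 7.55), with a log2 difference of -0.95 ± 0.22 (SE, edgeR adjusted p = 0.00022). Iglv1 had a median of 2.65 CPM in control mice (0.673 to 18.7) and 1.63 CPM in cKOt mice (0.259 to 3.48), with a log2 difference of -0.88 ± 0.18 (SE, edgeR adjusted p = 5.7e-05). Igkv6-15 had a median of 2.01 CPM in control mice (0.259 to 4.59) and 0.630 CPM in cKOt mice (0.156 to 3.60), with a log2 difference of -1.22 ± 0.24 (SE, edgeR adjusted p = 1.9e-05). In these 3 segments the cKOt median was below the control median while the ranges overlapped.

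The other members among the 10 with the smallest adjusted p were Ighv1-19, Ighv14-2, Ighv1-55, Igkv4-50, Ighv1-26 and Igkv3-2, with log2 differences from -0.95 to -1.98. Their levels were low, and Igkv4-50, the most extreme of them, had a median of 0.156 CPM in control against 0.0525 CPM in cKOt mice and no count in any cKOt mouse at ZT16, so its fitted value is unstable. Ighv1-26, which had counts in all 60 mice, went from a median of 1.68 CPM in control mice (0.331 to 6.12) to 0.966 CPM in cKOt mice (0.142 to 2.93). Among the 10 members with the highest mean, Ighv9-3 was the exception that was not called, with a log2 difference of -0.51 and an adjusted p of 0.14 in edgeR. Its median was 1.41 CPM in control mice (0.110 to 5.85) and 0.985 CPM in cKOt mice (0 to 4.84). The 4 members with a fitted difference above 0 were Ighv10-1 (0.18), Ighv1-75 (0.0017), Ighv1-43 and Igkv11-125, the last 2 with counts in 6 and 13 mice; all but Ighv1-75 were picked out after their values were seen. None of them passed the test, and Ighv1-75 changed sign with the settings.

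**Figure D3:**
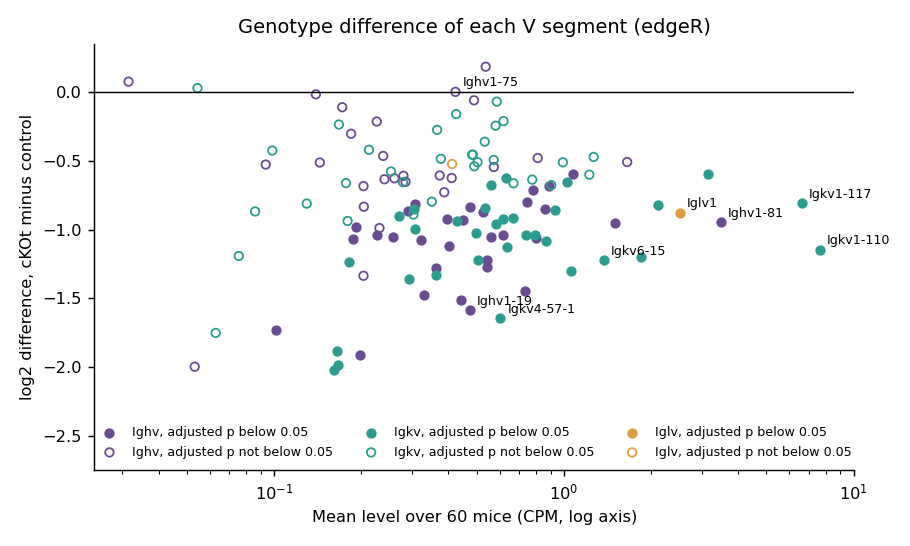
Fitted log2 difference (cKOt minus control, averaged over time points) of each of the 123 V segments against its mean level (CPM, log axis), with filled points for an adjusted p below 0.05 in edgeR. All 64 filled points lie below 0, and 119 of the 123 points do.

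The constant regions and partner genes were read in the same fit. Igha had a median of 115.8 CPM in control mice (47.2 to 289.1) and 67.7 CPM in cKOt mice (23.2 to 165.9), with a log2 difference of -0.83 ± 0.15 (SE, edgeR adjusted p = 5.2e-06). Igkc had a median of 85.04 CPM (28.4 to 217.3) against 55.0 CPM (15.7 to 117.2), with a log2 difference of -0.79. Jchain went from 44.8 CPM (15.5 to 123.4) to 27.2 CPM (9.23 to 57.9), with a log2 difference of -0.82. All 4 light chain constant genes tested were lower. Of the 6 heavy chain constant genes tested, Igha was the one called. Ighm had medians of 8.50 CPM in control mice (4.79 to 25.8) and 6.54 CPM in cKOt mice (4.14 to 30.9), with a log2 difference of -0.15 ± 0.14 (SE) and an edgeR adjusted p of 0.41. Whether the difference in Igha was larger than that in Ighm was not tested. Ighg2b (-0.49), Ighg2c (-0.45), Ighg1 (-0.12) and Ighg3 (0.52) were not called either.

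Taken over all time points, the median proportions of V and constant levels within a mouse were similar in both genotypes. The summed kappa V level divided by the Igkc level was 0.674 in the median control mouse (0.505 to 0.836) and 0.681 in the median cKOt mouse (0.530 to 0.780). Igha made up 87.6% of the heavy constant level in the median control mouse (62.2% to 94.9%) and 84.6% in the median cKOt mouse (56.3% to 94.4%). At ZT20 this share was 89.1% to 94.9% in control mice and 56.3% to 82.5% in cKOt mice, without overlap. At every other time point the genotypes overlapped in this share. Lambda segments were 4.93% of the light chain V level in the median control mouse and 4.85% in the median cKOt mouse, and reached 24.1% and 23.6% in the highest mouse of each genotype. These proportions were not tested.

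The plasma cell list, fixed with earlier results known, had 10 of 12 genes tested, of which 7 were lower in cKOt mice and 1 higher, with a median log2 difference of -0.24. Beside Jchain, the genes with the largest differences were Derl3 (-0.83), an endoplasmic reticulum degradation factor, and Irf4 (-0.67), a transcription factor of plasma cells. Pou2af1 (-0.55), Fkbp11 (-0.21), Xbp1 (-0.17) and Sdc1 (-0.17) were lower too, Prdm1 (-0.08) and Tnfrsf13b (-0.27) were not called, and Eaf2 was higher (0.47). Xbp1 ranged from 123.3 to 276.2 CPM in control mice, where the median of Jchain was 44.8 CPM. Which cells the transcripts of the listed genes came from was not tested. Mzb1 and Tnfrsf17 stayed under the 1 CPM minimum, and the median of Mzb1 was 0.426 CPM in cKOt against 0.268 CPM in control mice. Of 12 B cell markers, 9 stayed under the 1 CPM minimum, among them Ms4a1 (at most 0.382 CPM), Cd79a (at most 0.779) and Pax5 (at most 0.385). Of the other 3, Cd79b reached 1.01 CPM and was lower in cKOt mice (-0.39). Cd74, which other antigen-presenting cells also express, ranged from 80.0 to 155.5 CPM in control mice and from 47.8 to 106.5 CPM in cKOt mice and was lower (-0.34), and Cr2 reached 4.87 CPM and was higher (0.70). Rag1 and Rag2, needed for joining V segments, and Dntt, listed with them, did not exceed 0.248 CPM in any mouse. Of 6 genes listed for V segment joining and early B cells, Vpreb1 was the one tested, and it was higher in cKOt mice (0.68) at a median of 1.02 against 0.604 CPM. Pigr, the epithelial receptor that carries polymeric IgA, was higher in cKOt mice, with a median of 139.2 CPM in cKOt against 104.6 CPM in control mice and a log2 difference of 0.37 ± 0.07 (SE, edgeR adjusted p = 2.4e-05), whereas Fcgrt, the neonatal receptor for IgG, was lower (-0.29).

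The lists of other cell types were read in the same fit. Of 6 T cell genes tested, 5 were lower in cKOt mice and Lck was not called, with a list median of -0.49, and the summed level of the 10 listed genes ranged from 3.20 to 10.0 CPM in control and 3.19 to 6.14 CPM in cKOt mice. Of 8 macrophage genes, 7 were lower with a median of -0.22, whereas Csf1r, the most abundant of them, had a log2 difference of -0.01 and was not called. The macrophage sum ranged from 73.2 to 131.5 CPM in control and from 79.9 to 120.9 CPM in cKOt mice, which overlap almost fully. Neither blood gene tested was called, although both fitted differences were negative, with a list median of -0.80. The log2 difference was -0.90 ± 0.46 for Hba-a1 and -0.70 ± 0.35 for Hbb-bs (SE, edgeR adjusted p = 0.097 for each). Blood transcripts were sparse, and the summed haemoglobin and Alas2 level stayed between 0 and 4.42 CPM. Of 8 kidney epithelial genes, 2 were lower and 3 higher, with a median of 0.01. The part of these cell types in the V segment result was not tested.

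The genotype by time comparison asked whether the difference varied over the day. 3 members were called, 2.44% of the 123, against 3.08% of all genes. Across members the median fitted difference was 0.02 at ZT0, -0.57 at ZT4, -1.05 at ZT8, -0.73 at ZT12, -1.28 at ZT16 and -1.34 at ZT20, and the difference was negative in 60 of the 123 members at ZT0 and in 110 at ZT20. The corresponding medians of all genes were between 0.0028 and 0.017. The change in these medians over the day was not tested, and for 120 members the interaction did not pass. The count fell to 0 without the mice numbered replicate 2, and to 1 without any other replicate number.

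Igkv1-110 was 1 of the 3, with an edgeR adjusted p of 0.041. At ZT0 its levels were 3.99, 5.63, 9.50, 10.7 and 10.7 CPM in control mice and 6.99, 8.26, 10.6, 10.9 and 20.3 CPM in cKOt mice. At ZT8 they were 5.30, 7.13, 9.30, 11.9 and 41.2 CPM in control mice and 1.801, 2.46, 3.01, 3.35 and 5.06 CPM in cKOt mice. The genotypes overlapped at ZT0, and at ZT8, ZT16 and ZT20 every control mouse was above every cKOt mouse. This call was lost in 12 of 20 alternatives, with adjusted p from 0.026 to 0.23 in the edgeR and limma fits.

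Ighv1-15 had the smallest interaction p among members (edgeR adjusted p = 0.0035). At ZT0 it was at 0, 0, 0, 0.348 and 0.431 CPM in control mice and at 0.108, 0.243, 1.09, 1.71 and 2.14 CPM in cKOt mice. At ZT20 it was at 0.558, 0.599, 0.678, 0.766 and 0.964 CPM in control mice and at 0, 0.0530, 0.10, 0.157 and 0.186 CPM in cKOt mice. The medians of the genotypes were thus in opposite order at these times, on counts of at most 40 per mouse, and the ranges overlapped at ZT0 and not at ZT20. The third was Ighv4-1, with an adjusted p in edgeR of 0.039. Its fitted log2 differences were 2.19 at ZT0, -2.46 at ZT4, -1.39 at ZT8, -2.56 at ZT12, 0.82 at ZT16 and -4.62 at ZT20. At ZT20 the control mice had 0.272, 0.409, 0.750, 0.836 and 5.53 CPM against at most 0.15 CPM in cKOt mice, and at ZT0 no mouse exceeded 0.267 CPM. This call was lost in 8 of 16 alternatives, and that of Ighv1-15 in 2 of 20.

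The time of day comparison, on the mean of both genotypes, called 9 members, or 7.32%, against 44.5% of all genes. Among 839 other genes of like level (0.340 to 0.752 CPM) it called 17.8%. Igkv17-127 had the smallest adjusted p in edgeR (0.0080). Its group means were highest at ZT8, at 0.976 CPM (control) and 0.627 CPM (cKOt), and were 0.245 and 0.213 CPM at ZT0 and 0.398 and 0.15 CPM at ZT12. Ighv1-85, Igkv12-89, Ighv1-75 and Igkv3-10 followed, all with mean levels under 1 CPM. The call of Ighv1-75 came with 1 cKOt mouse at ZT8, at 9.35 CPM, while the other 4 mice of its group were between 0 and 0.269 CPM. Without that mouse the adjusted p in edgeR was 0.86, and 6 members were called for time.

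The spread between mice of a group was wide. The median dispersion of the members, edgeR's measure of variance beyond counting error, was 0.62, against 0.0074 for all genes and 0.074 for 839 other genes of like level. Of those 839, 6 had a dispersion above the members' median.

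Single mice had their own leading segments. Ighv1-81 was the highest heavy segment in 39 of 60 mice, Ighv9-3 in 7 and Ighv1-26 in 5, and 9 other segments each led in 1 mouse. Igkv1-117 led the kappa segments in 28 mice and Igkv1-110 in 26. The highest heavy segment held 13.0% of the heavy V counts in the median control mouse (7.29% to 44.3%) and 14.8% in the median cKOt mouse (6.72% to 44.0%). For kappa the shares were 16.5% (10.5% to 30.3%) and 15.1% (9.28% to 42.4%). The kappa medians were 10.3% and 12.4% without the 8 kappa members whose nearest V segment was another member at 97% identity or more. These 8 include Igkv1-110 and Igkv1-117. The shares of the genotypes overlapped almost fully and were not tested.

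In the cKOt mouse replicate 2 at ZT8, Ighv1-75 held 176 of 400 heavy V counts (44.0%, Wilson 95% interval 39.2% to 48.9%, counting error only) and Igkv10-96 held 281 of 662 kappa counts (42.4%, 38.7% to 46.2%). The next heavy and kappa segments of this mouse held 6.50% and 9.52%. Its summed V level, 58.0 CPM, was near the cKOt median. Of all Ighv1-75 counts in the 60 mice, 37.3% came from this animal.

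In the control mouse replicate 5 at ZT4, Ighv9-3 held 113 of 255 heavy V counts (44.3%, 38.3% to 50.5%), and Iglv2 held 90 counts at 4.66 CPM, its highest level in any mouse, while the highest kappa segment held 10.5%. The summed level of that mouse, 35.4 CPM, was the lowest of the control mice. In the control mouse replicate 1 at ZT8, Igkv1-110 reached 41.2 CPM, 27.7% of the kappa counts, and Igkv4-57-1 (11.2 CPM) and Ighv1-7 (9.62 CPM) also had their highest level there, with 29.5% and 28.1% of their counts over all mice. In the cKOt mouse replicate 3 at ZT0, which had the highest summed level of its genotype, Igkv4-91 reached 9.64 CPM, 27.7% of its counts over all mice.

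In 10 members, 25% or more of all counts came from 1 mouse, a limit chosen after the values were seen. The most extreme was Ighv1-43, with 27 of 34 counts in the control mouse replicate 5 at ZT12 (79.4%, 63.2% to 89.7%), followed by Igkv11-125, with 42 of 61 counts in the cKOt mouse replicate 3 at ZT0. The mice concerned were of both genotypes.

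**Figure D4:**
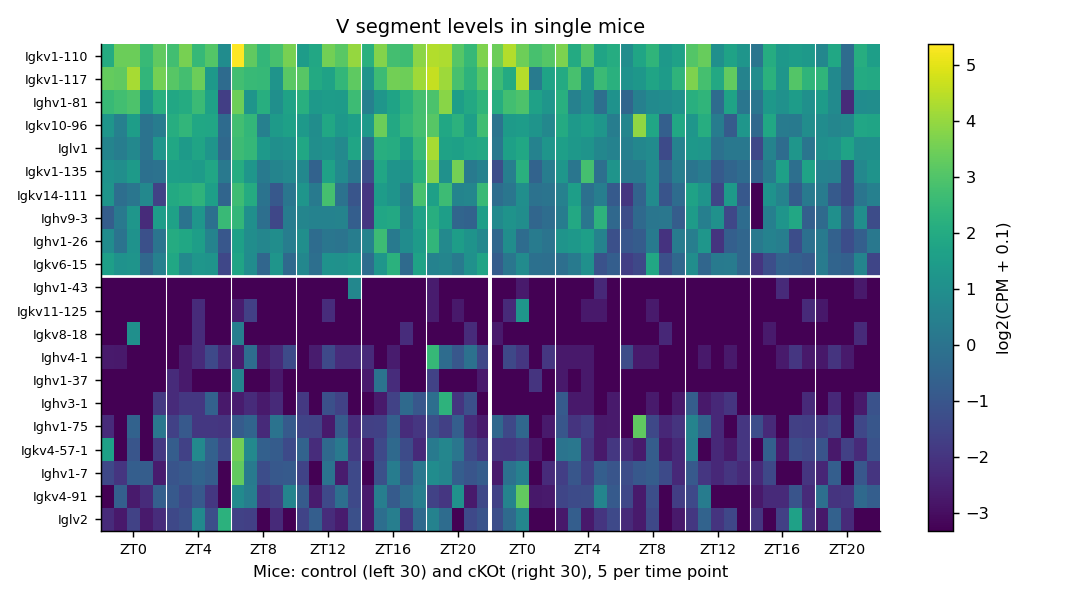
Level of V segments, as log2(CPM + 0.1), in each of 30 control (left) and 30 cKOt mice (right), ordered by time point. The upper 10 rows are the members with the highest mean, present in nearly all mice, and the lower rows are the 10 members with 25% or more of their counts in 1 mouse plus Iglv2, which show single bright cells.

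The 5 mice with the highest summed V level were all control mice, at ZT20 (254.7 and 162.5 CPM), ZT8 (238.9 CPM) and ZT16 (184.7 and 139.1 CPM). In the highest, replicate 1 at ZT20, Ighv1-81 held 9.18% of heavy counts (7.79% to 10.8%) and Igkv1-117 15.8% of kappa counts (14.5% to 17.3%), and 118 of the 123 members had counts. Iglv1 was at 18.7 CPM in this mouse, while the other 4 mice of the group were between 2.96 and 3.70 CPM. Igha in these 5 mice was 225.2, 181.5, 289.1, 230.4 and 184.2 CPM in the order given, and Jchain was 123.4, 86.9, 119.8, 86.2 and 64.8 CPM. Ighm was 8.70, 7.07, 10.1, 18.2 and 14.1 CPM, and the highest Ighm of all mice, 30.9 CPM, was in the cKOt mouse replicate 2 at ZT20, with a summed V level of 65.0 CPM. These 5 mice, picked by summed V level, thus also had high Igha and Jchain, and none of them had the highest Ighm. Of their Ighm values, 7.07 CPM lay below the control median of 8.50 CPM and the others lay above it. V segments and constant regions are spliced into the same transcripts, so their levels are not independent measures. Without the control mice replicate 1 at ZT20 and replicate 1 at ZT8, 52 of the 117 members tested were called lower and none higher. In that fit 3565 of all 15536 genes were lower.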

How the data were processed

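Poly(A) RNA of 60 kidneys was sequenced as single reads with a stranded kit. The authors deposited counts of reads per gene, made from reads trimmed with cutadapt 1.8, aligned with STAR 2.5.3a to GRCm38 and counted with HTSeq 0.9.1, with multimapping reads left out, so reads shared by similar V segments are not in the counts. Reads outside genes were 5.19 to 7.87%, ambiguous reads 0.708 to 0.927% and multimapping reads 24.3 to 29.4% of the listed total and were left out of library sizes. From more mice than were deposited, the authors kept 5 per group by RNA quality and distance in a principal component analysis, and their sample table marks the cKOt mouse replicate 4 at ZT16 for removal, which was deposited and kept here. All 55335 gene identifiers were read with their deposited counts, and 15546 genes with at least 1 CPM in 1 mouse were kept, after which members were taken by symbol.

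Counts were tested with the quasi-likelihood test of edgeR 4.0.16 in R 4.3.3, with TMM scaling, 12 groups and 2 RUVs factors of unwanted variation estimated from the replicates, and p-values were adjusted by Benjamini-Hochberg over all 15546 genes, with a threshold of 0.05. The contrasts were genotype averaged over 6 time points, genotype by time, and time. Each SE was back-calculated as the absolute log2 difference divided by the square root of the F statistic of its test. Fold changes of V segments are relative to all genes, and the median of all genes was near 0. DESeq2 1.42.0, limma 3.58.1, other filters, scalings, covariates and the omission of mice were tried as alternatives. Mice are separate animals, and no pair of the 120 within groups had identical counts. Mice with the same replicate number in different groups did not deviate together (mean correlation 0.0043 over 330 pairs, against -0.0010 over 1320 other pairs), so numbers were not used to pair mice.

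Sequences and gene positions are from GENCODE M21 transcripts on GRCm38. Shares of counts carry Wilson 95% intervals, which cover counting error only. Named segments were those with the highest mean or highest single level, the smallest adjusted p in each test, the neighbours of the 1 CPM minimum, and the leading segments of the 5 mice with the highest summed level. The members and lists were chosen with earlier results of these data known.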

Additional observations from a re-analysis of the deposited data

Results flagged for a closer look

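Within groups of 5 mice, 21 values of 180 groups and measures tested stood apart from the rest of their group by Dixon's criterion. Chance gives about 9 at this level if values are normally distributed, which was not checked. The summed levels also contain the single segments, so no conclusion is drawn from the number of values. The control mouse replicate 1 at ZT8 stood apart in summed heavy V level (83.6 CPM, median of the others 27.3), summed kappa V level (149.0 CPM, 51.0), Igkv1-110 (41.2 CPM, 8.22) and Ighv1-81 (10.8 CPM, 2.65). The cKOt mouse replicate 3 at ZT0 stood apart in Igkv1-117 (20.9 CPM, 3.52), Igkv1-135 (4.50 CPM, 0.885) and Igkv14-111 (1.88 CPM, 0.895). The cKOt mouse replicate 2 at ZT8 stood apart in Igkv10-96 (14.9 CPM, 2.44) and in the share of its highest kappa segment (42.4%, 11.9%). Iglv1 stood apart in the control mouse replicate 1 at ZT20 (18.7 CPM, 3.25) and in the cKOt mouse replicate 3 at ZT20 (3.23 CPM, 1.92).

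The share of the highest heavy segment stood apart in the control mice replicate 5 at ZT4 (44.3%, median of the others 11.6%), replicate 2 at ZT0 (28.7%, 19.5%) and replicate 2 at ZT20 (25.7%, 10.7%), and was low in the cKOt mouse replicate 5 at ZT0 (9.74%, 18.3%). The share of the highest kappa segment stood apart in the cKOt mouse replicate 4 at ZT16 (27.1%, 13.1%) and the control mouse replicate 5 at ZT12 (30.3%, 16.5%). Single segments also stood apart with Igkv1-135 in the cKOt mouse replicate 3 at ZT4 (6.83 CPM, 1.57), Igkv14-111 in the control mouse replicate 3 at ZT12 (6.92 CPM, 0.969) and Igkv6-15 in the cKOt mouse replicate 3 at ZT8 (3.60 CPM, 0.299), and low with Ighv9-3 in the control mouse replicate 5 at ZT12 (0.506 CPM, 1.37).

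A genotype by time interaction was called in Ighv1-15 (edgeR interaction, adjusted p = 0.0035), Ighv4-1 (adjusted p = 0.039) and Igkv1-110 (adjusted p = 0.041). These 3 were 2.44% of the members, against 3.08% of all genes. The calls were lost in 2 of 20, 8 of 16 and 12 of 20 alternatives, in that order.

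Among the V pseudogenes, which are not members, 9 had more than the 3 counts that a count of 0 allows, summed over 60 mice. Igkv8-31 had 11 counts, Igkv4-73 11, Ighv1-62 9, Ighv1-2 8, Ighv1-33 6, Igkv4-77 6, Ighv1-83 5, Ighv1-38 4 and Igkv2-107 4.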

How the results depend on the processing

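Across 21 alternatives, which tested 100 to 123 members, between 39 and 66 members were called lower in cKOt mice and none higher. Leaving out 1 replicate number or 1 mouse at a time gave 39 to 64 members lower. It was 39 of 115 without replicate 1, which holds the 2 control mice with the highest summed level. Without replicate 3 it was 46 of 117. Of all genes, 3139 of 15451 were lower without replicate 1 and 3339 of 15458 without replicate 3. With batch in place of the RUVs factors it was 51 of 123 members, beside 2947 of 15546 genes. Without a filter it was 57 of 123 members, beside 3631 of 32924 genes. The replicate block gave 62 members lower, 2 with an interaction and 8 with time, and the pairing of numbers was not used. The interaction count ranged from 0 to 3 when replicates or single mice were left out. It was 1 without the control mouse replicate 1 at ZT20, and also 1 without both control mice (replicate 1 at ZT20 and at ZT8). It was 1 as well without the cKOt mouse replicate 3 at ZT0, so the number of interaction calls depended on single mice. The call of Ighv1-15 was kept in 18 of 20 alternatives. The time count ranged from 5 to 12 on leaving out replicates and was 5 with limma. The median share of the highest kappa segment in control mice was 16.5%. It was 10.3% without the 8 kappa members whose nearest V segment was another member at 97% identity or more.

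The Ighv1-75 genotype log2 difference, 0.0017 and not called, changed sign in 14 alternatives. It was -0.0153 with DESeq2 size factors, -0.164 with limma, -0.00291 without a filter, -0.00637 with filterByExpr, -0.0360 with RUVs factors estimated without immunoglobulin genes, -0.0505 with the replicate block and -0.0874 without both control mice, and ranged from -0.49 to 0.30 on leaving out replicates or mice. The cause was not tested. Of the 28 called genes that were followed through the alternatives, none changed sign and 19 kept the call under every one. The other genes of the marker lists were not followed singly. The alternatives that leave out the control mice replicate 1 at ZT20 and ZT8 and the cKOt mice replicate 2 at ZT8 and replicate 3 at ZT0 were chosen after seeing the data. Most members had a mean under 1 CPM, and the median dispersion of members was 0.62, against 0.074 for other genes of like level, so the spread between mice also limits what single segments can show.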
